A study of Mus musculus with 12 samples.

Results

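The RGS genes (regulators of G protein signalling) described here are Rgs2, Rgs3, Rgs4, Rgs5, Rgs7, Rgs10, Rgs12, Rgs16, Rgs17 and Rgs19, which are 10 of the 19505 genes measured. They were chosen by symbol from the array annotation, because Rgs16 was lower and Rgs5 higher where Sos1 was lost. Their differences in the 3 comparisons that remove Sos1 are therefore given as descriptions, with no p-value for any member. Calls there are listed only beside the share of all genes called, and nothing is read from them. The other 4 comparisons, which ask about Sos2 and about the interaction of both deletions, were not themselves used in the choice and were tested. They share arrays with the 3 that were, and the interaction is built from these, so they are not independent of the choice.

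RNA was measured on Affymetrix expression arrays in low-passage mouse embryonic fibroblasts (MEFs), which are cultured connective tissue cells. The cells came from C57/BL6 embryos isolated in mid-gestation (E13.5). There were 4 groups of 3 arrays: wild-type cells (WT), cells without Sos1 (Sos1KO), cells without Sos2 (Sos2KO) and cells without either (Sos1/2DKO). Every group, WT included, had received 4-hydroxytamoxifen for 12 days, so no group shows the fibroblasts without the drug. All cultures were recorded with 10% fetal bovine serum. The Cre driver, the type of each allele and the embryo behind each culture were not stated in the labels. The p-values therefore measure the spread between these cultures.

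G protein-coupled receptors switch on heterotrimeric G proteins by loading their alpha subunit with GTP. RGS proteins bind the GTP-loaded alpha subunit and speed its GTP hydrolysis, which ends the signal. Sos1 and Sos2 act in another pathway, where they load Ras with GTP downstream of receptor tyrosine kinases. Small RGS proteins such as Rgs2, Rgs4, Rgs5 and Rgs16 are known in many cells as genes whose transcript level changes quickly with signalling, and Rgs5 is widely used as a marker of pericytes, the contractile cells on small vessels.

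The sequences just before the transcription start are shown for the genes that moved together across the arrays, Rgs16 with Rgs12 and Rgs4 with Rgs5. All 10 genes matched the RefSeq promoter table (build GRCm38.p6), and each window printed is the 250 bases before an annotated start, written 5′ to 3′ on the gene's own strand. Capitals mark every match to 7 motifs searched on both strands. The AP-1 motif was searched as TGANTCA and the cyclic AMP response element (CRE) as TGACGTCA. For the ETS family the letters were CCGGAAG, for the EGR family they were GCGNGGGCG, which can overlap an SP1 match, and for SP1 itself they were GGGCGG. The E-box was taken as CACGTG and the TATA box as TATAAA. Rgs16 lies on the plus strand of chromosome 1 (window chr1:153740103-153740352). Rgs12 lies on chromosome 5, plus strand, and has 2 annotated starts (windows chr5:34949198-34949447 and chr5:34998828-34999077). Rgs5 (chr1:169655251-169655500, plus strand) and Rgs4 (chr1:169747643-169747892, minus strand) are neighbouring genes.
Rgs16: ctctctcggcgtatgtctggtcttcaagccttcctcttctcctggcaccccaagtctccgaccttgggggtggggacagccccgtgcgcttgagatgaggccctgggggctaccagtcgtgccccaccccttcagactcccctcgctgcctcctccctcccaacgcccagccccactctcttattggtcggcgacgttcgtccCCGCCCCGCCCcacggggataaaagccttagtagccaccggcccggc
Rgs12 first start: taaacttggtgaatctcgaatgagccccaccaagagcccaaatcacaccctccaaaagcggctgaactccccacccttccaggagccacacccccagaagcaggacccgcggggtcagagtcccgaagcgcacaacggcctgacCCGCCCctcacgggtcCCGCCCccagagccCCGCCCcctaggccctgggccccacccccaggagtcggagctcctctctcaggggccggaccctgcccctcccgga
Rgs12 second start: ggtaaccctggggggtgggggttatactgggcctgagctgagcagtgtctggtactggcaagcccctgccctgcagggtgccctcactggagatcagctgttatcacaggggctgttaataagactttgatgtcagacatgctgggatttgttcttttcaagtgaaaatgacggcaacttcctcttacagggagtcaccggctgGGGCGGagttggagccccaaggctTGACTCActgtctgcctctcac
Rgs5: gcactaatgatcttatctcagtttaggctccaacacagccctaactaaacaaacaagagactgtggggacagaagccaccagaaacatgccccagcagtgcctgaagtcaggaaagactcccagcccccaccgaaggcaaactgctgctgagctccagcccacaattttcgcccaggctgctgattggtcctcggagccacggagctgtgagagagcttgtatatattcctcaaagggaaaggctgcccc
Rgs4: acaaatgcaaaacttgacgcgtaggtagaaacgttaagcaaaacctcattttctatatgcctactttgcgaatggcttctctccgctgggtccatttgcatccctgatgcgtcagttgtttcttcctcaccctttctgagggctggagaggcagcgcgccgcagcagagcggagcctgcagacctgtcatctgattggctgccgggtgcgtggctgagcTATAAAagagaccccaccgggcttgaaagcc

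The Rgs16 window held 2 overlapping SP1 matches, which start 47 and 42 bases before the transcription start. The first Rgs12 window held 3 SP1 matches, and the second held 1 SP1 match and 1 AP-1 match 22 bases before its start. The SP1 letters were present in 32.7% and the AP-1 letters in 6.75% of all 32851 promoter windows of this length. The Rgs4 window held a TATA match 31 bases before the start, a motif found in 12.4% of all windows, and the Rgs5 window held none of the 7. The ETS letters, in 6.91% of all windows, and the CRE letters, in 1.55%, were in none of the 5 windows printed. G and C made up 66.4% of the Rgs16 window and 53.6% of both the Rgs4 and the Rgs5 window, against a median of 52.4% over all windows. These matches describe the letters only.

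The values are log2 RMA levels, on which 1 unit is a doubling. The deleted genes were checked first. Sos1 lay between 8.77 and 9.38 in the WT and Sos2KO arrays and between 7.13 and 7.96 in the Sos1KO and Sos1/2DKO arrays. Sos2 lay between 8.65 and 9.23 in the WT and Sos1KO arrays and between 7.56 and 8.03 in the Sos2KO and Sos1/2DKO arrays. Every array matched its label. The fibroblast marker list, with 10 of its 11 genes measured, had a mean between 10.05 and 10.96 on every array and none of those genes was weak throughout a group. Weak here means under the level that 75% of the 5222 probe sets for introns stayed below on the same array, 5.01 to 5.76. The fibroblast markers were not all steady over the groups. Thy1 read 9.21 to 9.64 in Sos1/2DKO, against 10.42 to 11.61 in WT and 11.20 to 11.69 in Sos2KO. For Col1a1, Col1a2 and Vim the Sos1/2DKO and WT arrays overlapped, and the other markers of this list are not given singly. An added poly-A control, Dap, was high on 5 arrays: Sos1KO replicate 3, Sos1/2DKO replicate 1 and all 3 of Sos2KO. The high-GC background controls read 8.74 and 8.89 on Sos2KO replicates 1 and 2 and 7.55 to 8.20 on the other arrays. Y-linked genes were expressed on all 3 Sos1/2DKO arrays, 2 of Sos2KO and 1 each of WT and Sos1KO. Values with a term for each of these measures are given below for some of the results they moved.

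Rgs7, a partner of the G beta subunit Gnb5 best known from neurons, was weak on all 12 arrays (3.62 to 4.96), and none of the other members was weak on any array. The nearest was Rgs16 on Sos1/2DKO replicate 2, at 5.76 beside a guide of 5.76 on that array, so the size of its difference is uncertain there. On the same array Rgs12 read 5.83. Rgs5 read 5.33 and 5.44 on Sos2KO replicates 1 and 2, beside guides of 5.16 and 5.01. The sizes of differences that rest on these arrays are uncertain too. The mean levels of the other members over the 12 arrays ran from 6.80 for Rgs2 to 9.20 for Rgs4. Levels of different genes come from different probes and are not ranked against each other. The span from the lowest to the highest array was 4.83 for Rgs5, 4.28 for Rgs16 and 3.66 for Rgs4, each wider than 99% of all genes, and only 0.84 for Rgs10. The plot of the 10 genes by genotype shows each array.

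**Figure D1:**
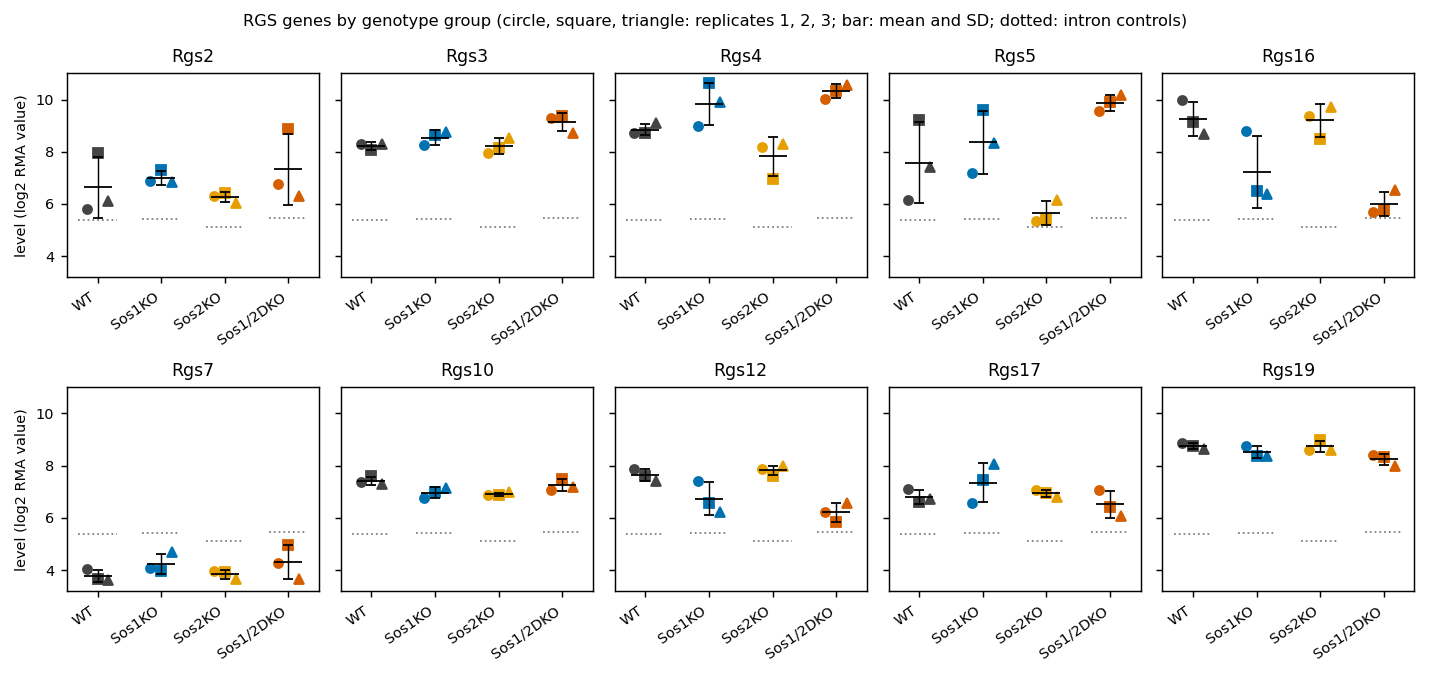
Level (log2 RMA value) of each RGS gene on every array, by genotype group. Symbols are replicates, the black bar is the group mean with its SD (n = 3), and the dotted line is the mean guide for weak signal. Rgs16 and Rgs12 are low on all Sos1/2DKO arrays and on 2 of the 3 Sos1KO arrays, Rgs5 and Rgs4 are high on all Sos1/2DKO arrays, and Rgs7 lies under the dotted line throughout.

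Rgs16, which acts on the Gi and Gq classes of alpha subunit, had the lowest levels where both Sos genes were lost. It read 9.97, 9.16 and 8.68 on the WT arrays, 8.80, 6.49 and 6.39 on those of Sos1KO, 9.38, 8.49 and 9.72 on those of Sos2KO, and 5.69, 5.76 and 6.53 on those of Sos1/2DKO. The Sos1/2DKO arrays lay under every WT and Sos2KO array. Sos1KO replicate 1 lay among the WT arrays, while the other Sos1KO arrays lay beside Sos1/2DKO. The group mean was 9.27 ± 0.65 (SD, n = 3) for WT and 9.20 ± 0.64 for Sos2KO, against 7.23 ± 1.36 for Sos1KO and 6.0 ± 0.46 for Sos1/2DKO. The difference from WT was -2.04 (SE 0.56) in Sos1KO and -3.27 (SE 0.56) in Sos1/2DKO, and Sos1/2DKO minus Sos2KO was -3.20. In order, Sos1/2DKO was lowest, then Sos1KO, with WT and Sos2KO overlapping at the top.

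Rgs12 is a large RGS protein that also carries a Ras-binding domain. Its levels were 7.89, 7.60 and 7.43 on the WT arrays, 7.43, 6.56 and 6.24 on the Sos1KO arrays, 7.87, 7.61 and 7.97 without Sos2, and 6.22, 5.83 and 6.58 without both. The pattern over the arrays was that of Rgs16, with Sos1KO replicate 1 again beside WT. Rgs12 was lower than in WT by a difference of -0.90 (SE 0.28) in Sos1KO and -1.43 (SE 0.28) in Sos1/2DKO.

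Among the 1208 genes whose levels spanned at least 2 log2 units and whose mean lay above the guide for weak signal, the 5 whose pattern over the 12 arrays was most like that of Rgs16 were Myc (Pearson r = 0.983), Rgs12 (0.980), Dusp4 (0.980), Nkain1 (0.970) and Sh3kbp1 (0.960). Myc encodes a transcription factor of cell growth, and Dusp4 a phosphatase of ERK that is itself an ERK target. The arrays share their groups, so much of each r is the difference between groups. After the group means were taken out, r with Rgs16 was 0.942 for Dusp4, 0.927 for Myc and 0.926 for Rgs12, again over the 12 arrays. These are descriptions, since the genes were picked for their r. Dusp4 on the Sos1KO arrays was 8.31, 6.69 and 5.86, against 8.03 to 8.77 in WT. Myc on the same arrays was 9.89, 8.88 and 8.71, against 9.93 to 10.18 in WT. Other genes did not place Sos1KO replicate 1 with WT. Its Sos1 was 7.31, its Dusp6, another ERK phosphatase and target, was 8.42 against 9.26 to 9.51 in WT, and its S1pr1, a sphingosine 1-phosphate receptor, was 6.64 against 7.10 to 7.69. For Dusp6 the r with Rgs16 was 0.824 over all arrays and 0.215 within groups. For Sos1 it was 0.785 and 0.033.

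**Figure D2:**
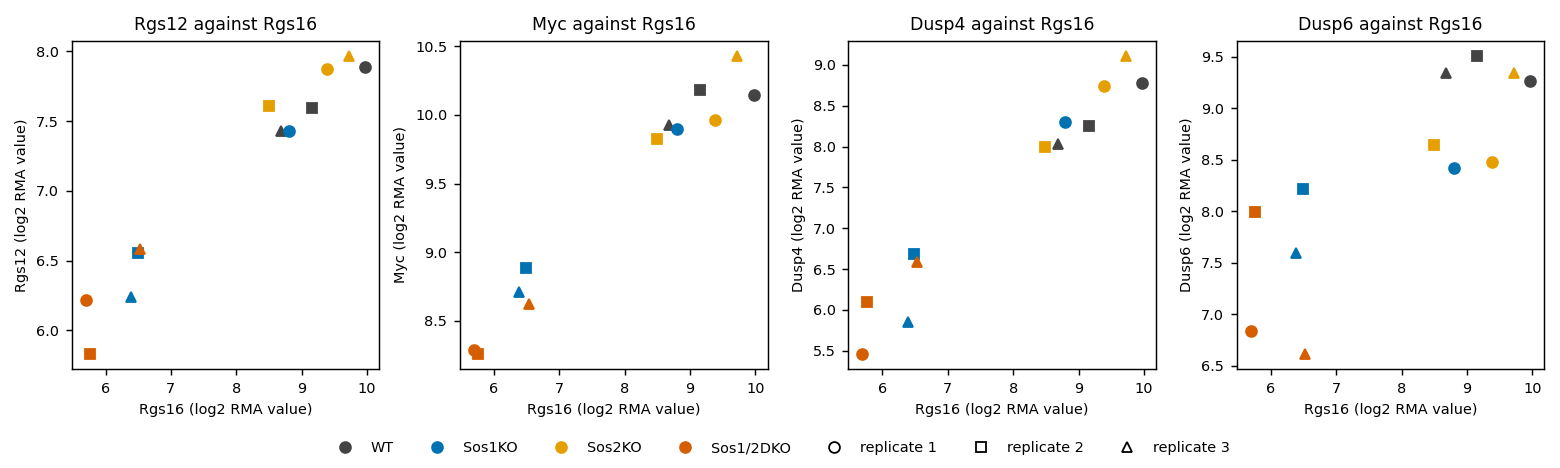
Level of Rgs12, Myc, Dusp4 and Dusp6 against Rgs16 (all log2 RMA values), with 1 point for each of the 12 arrays. Sos1KO replicate 1 (blue circle) sits with the WT and Sos2KO arrays for Rgs12, Myc and Dusp4, and at 8.42, below all 3 WT arrays, for Dusp6.

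Rgs5, which acts on Gi and Gq alpha subunits, varied most among the WT arrays. It read 6.14, 9.21 and 7.40 on the WT arrays, 7.17, 9.59 and 8.35 on those of Sos1KO, 5.33, 5.44 and 6.17 on those of Sos2KO, and 9.55, 9.92 and 10.16 on those of Sos1/2DKO. Sos1/2DKO lay above WT and Sos2KO throughout, and its lowest array lay just under the highest of Sos1KO. WT and Sos1KO overlapped widely. The group means were 7.58 ± 1.55 (SD, n = 3), 8.37 ± 1.21, 5.64 ± 0.45 and 9.88 ± 0.31 in the same order. The difference was 0.79 (SE 0.67) for Sos1KO minus WT, 2.30 for Sos1/2DKO minus WT and 4.23 for Sos1/2DKO minus Sos2KO. The first of these was 0.06 without WT replicate 1, 0.18 without Sos1KO replicate 2, 1.39 without Sos1KO replicate 1 and 1.60 without WT replicate 2.

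Rgs4, also a regulator of Gi and Gq and the chromosomal neighbour of Rgs5, read 8.73, 8.72 and 9.09 on the WT arrays, 9.0, 10.63 and 9.89 on those of Sos1KO, 8.19, 6.97 and 8.30 on those of Sos2KO, and 10.03, 10.33 and 10.57 on those of Sos1/2DKO. The order of the group means was that of Rgs5, from Sos2KO (7.82 ± 0.74) through WT (8.85 ± 0.21) and Sos1KO (9.84 ± 0.81) to Sos1/2DKO (10.3 ± 0.27, n = 3 each). Sos1KO and Sos1/2DKO overlapped, and so did WT and Sos1KO. Sos1/2DKO minus WT was 1.46, and 0.96 with a term for Y-linked expression. Across the 12 arrays Rgs4 and Rgs5 had r = 0.877, and 0.503 within groups.

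The genes most like Rgs5 by the same rule were Gpc3 (r = 0.940), Plagl1 (0.934), Nell2 (0.926), Prkaa2 (0.913) and Foxo1 (0.910). Gpc3 encodes a cell-surface glypican, Plagl1 an imprinted zinc finger protein, Prkaa2 a catalytic subunit of AMP-activated kinase and Foxo1 a transcription factor restrained by AKT. Gpc3 read 7.11 to 7.76 in Sos2KO and 10.01 to 10.87 in Sos1/2DKO, and Nell2 read 6.21 to 6.39 and 10.13 to 10.62. The highest Gpc3 value was 11.15, on Sos1KO replicate 2.

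**Figure D3:**
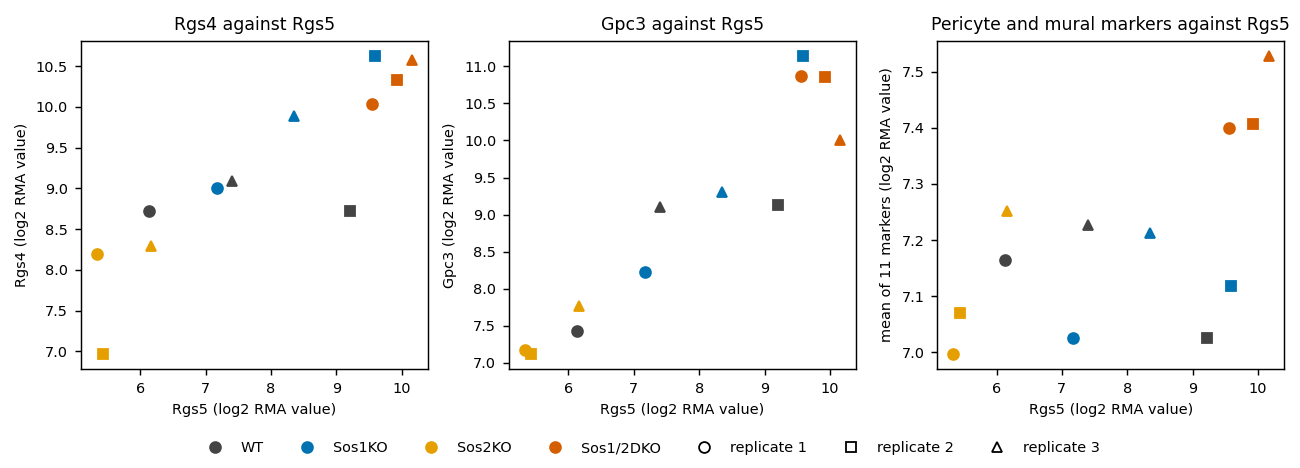
Rgs4, Gpc3 and the mean of the 11 pericyte and mural cell markers against Rgs5 (log2 RMA values), with 1 point for each of the 12 arrays. Sos1/2DKO lies at the upper right in every panel, and WT replicate 2 has high Rgs5 (9.21) with a marker mean of 7.03. Sos1KO replicate 2 (Rgs5 9.59) also lies at the upper right for Rgs4 (10.63) and Gpc3 (11.15), with a marker mean of 7.12.

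Because Rgs5 marks pericytes, the pericyte and mural list was set beside it. In a culture measured as a whole, more cells of a type and more RNA per cell cannot be told apart. All 11 markers were measured, and their mean was 7.40 to 7.53 on the Sos1/2DKO arrays. It was 7.03 to 7.23 on the WT arrays, 7.03 to 7.21 on those of Sos1KO and 7.0 to 7.25 on those of Sos2KO. The Sos1/2DKO arrays were above all others. The group mean of the list was 7.14 in WT and 7.44 in Sos1/2DKO. The markers given next are a part of the list and did not move as 1 group. Notch3, Anpep, Ndufa4l2, Cox4i2 and Vtn are also in the mean and are not given singly. Most of the rise of the list mean from WT to Sos1/2DKO lay in these, so the markers given do not show its source. Higd1b was weak on every WT and Sos1KO array and on 2 of the 3 Sos1/2DKO arrays (4.94 to 5.39), and it read higher, 5.44 to 5.74, in Sos2KO, where Rgs5 was lowest. Abcc9 was weak on every Sos1KO array and read 5.19 to 6.50 in Sos1/2DKO. Kcnj8 read 6.16 to 6.86 in Sos1/2DKO against 6.15 to 6.46 in WT. Mcam was lower in Sos1/2DKO, at 8.99 to 9.65 against 9.86 to 10.66 in WT. The Sos1/2DKO and WT arrays overlapped for Cspg4 (8.17 to 9.03 against 7.89 to 8.88) and Pdgfrb (10.47 to 10.95 against 10.18 to 10.99). The part of these cells in the Rgs5 values was not tested. Endothelial markers were near background, with Pecam1, Cdh5, Tek and Tie1 weak on all 12 arrays.

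Rgs3, a regulator of Gi and Gq with long and short forms, read 8.30, 8.05 and 8.29 on the WT arrays, 8.24, 8.62 and 8.77 on those of Sos1KO, 7.95, 8.16 and 8.54 on those of Sos2KO, and 9.30, 9.36 and 8.74 on those of Sos1/2DKO. The Sos1/2DKO arrays lay above WT and Sos2KO, and the lowest of them lay just under Sos1KO replicate 3. The difference of Sos1/2DKO from WT was 0.92 (SE 0.21).

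Rgs2, which prefers Gq, differed most through single arrays. It read 5.81, 7.96 and 6.12 in WT and 6.77, 8.89 and 6.30 in Sos1/2DKO, with 6.83 to 7.29 in Sos1KO and 6.05 to 6.43 in Sos2KO. WT replicate 2 and Sos1/2DKO replicate 2 stood apart from their groups. WT replicate 2 also had the highest mean of the 14 measured macrophage markers (7.41, against 5.80 and 5.92 on the other WT arrays) and the highest Rgs1 (7.47, against 4.25 and 4.77), an RGS gene of leukocytes. Over the 15 listed markers, the measured means were 6.16 to 7.06 in Sos1KO, 5.14 to 5.86 in Sos2KO and 5.48 to 6.16 in Sos1/2DKO, and Aif1 and Mrc1 were weak on all 12 arrays. The part of macrophages in the Rgs2 values was not tested. The Rgs2 difference of Sos1/2DKO from WT was 0.69 with all arrays, -0.09 without Sos1/2DKO replicate 2 and 1.35 without WT replicate 2.

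Rgs10, a short RGS protein of the Gi class, read 7.37, 7.60 and 7.31 on the WT arrays, 6.76, 7.0 and 7.16 on those of Sos1KO, 6.88, 6.88 and 6.97 on those of Sos2KO, and 7.08, 7.51 and 7.19 on those of Sos1/2DKO. Sos1KO and Sos2KO each lay wholly under WT, while Sos1/2DKO overlapped WT. Rgs19, which binds the adaptor Gipc1 and acts on Gi, was 8.65 to 8.85 with both Sos genes, 8.38 to 8.77 on the Sos1KO arrays, 8.61 to 8.98 on those of Sos2KO and 7.99 to 8.40 on those of Sos1/2DKO. The difference of Sos1/2DKO from WT was -0.51 (SE 0.17). Rgs17, a regulator of Gz and Gi, read 6.58, 7.44 and 8.05 in Sos1KO and 7.08, 6.40 and 6.07 in Sos1/2DKO, with 6.60 to 7.11 in WT and 6.82 to 7.07 in Sos2KO. Its highest value was on Sos1KO replicate 3, the array with the highest Dap control (9.32), and the part of that control in the Rgs17 values was not tested.

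In the comparisons that chose the genes, 0 of the 10 RGS genes were called in Sos1KO minus WT, where 0.62% of all genes were called at a limma adjusted p under 0.05 and 11.1% had an unadjusted p under 0.05, as 4 of the members did. In Sos1/2DKO minus WT 4 were called, beside 5.94% of all genes. Rgs3 and Rgs4 were higher, beside 1.78% of all genes, and Rgs12 and Rgs16 were lower, beside 4.16%. In Sos1/2DKO minus Sos2KO 5 were called, beside 6.14%. Rgs5 joined Rgs3 and Rgs4 among the higher, beside 3.33%, and Rgs12 and Rgs16 were again lower, beside 2.8%. These calls moved with the setting, as did the share of all genes called. In Sos1KO minus WT Rgs12 and Rgs16 were called without Sos1KO replicate 1 (0.984% of all genes). Rgs4 and Rgs10 joined them with array weights (8.61%). For Sos1/2DKO minus WT, Rgs16 alone was called without WT replicate 1 (1.37% of all genes). Rgs12 and Rgs16 alone were called there without WT replicate 3 (2.5%), Sos1/2DKO replicate 1 (4.05%) or Sos1/2DKO replicate 2 (7.71%). Within arrays without high Dap 0 were called there, where limma called 1.93% of all genes. With a replicate block (4.74% of all genes) Rgs4 lost its call there and Rgs5 gained one. Rgs5, Rgs12 and Rgs16 were called in every setting run for Sos1/2DKO minus Sos2KO, where 0.995% to 9.76% of all genes were called. Groups did not overlap for 1, 6 and 7 members, beside 21.9%, 24.5% and 19.7% of all genes. Nothing is read from these calls, from how they held over the settings or from these counts. The members were picked on these differences, and the 3 comparisons share arrays. The median size of difference over the 10 members was 0.50, 0.80 and 0.99, beside 0.14, 0.21 and 0.22 over all genes. The authors' deposited table for Sos1/2DKO against WT lists 6 members (Rgs3, Rgs4, Rgs5, Rgs12, Rgs16 and Rgs19) among 2507 rows. The authors' deposited table for Sos1KO lists 2 (Rgs10 and Rgs16) among 2306 rows, and the authors' deposited table for Sos2KO lists 0 among 59. Each was drawn from 29129 probe sets at an adjusted p of up to 0.25. These lists rest on the same arrays, and nothing is read from their counts either.

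Loss of Sos2 with Sos1 present changed none of the RGS genes past the test. In Sos2KO minus WT, limma called 0 of 10 members and 0% of all 19505 genes, and 3 members had an unadjusted p under 0.05, as had 13.9% of all genes. Without Sos2KO replicate 3, 720 of all genes were called and again 0 members. These 3 were Rgs10, with a difference of -0.52 (SE 0.16, limma adjusted p = 0.282), Rgs5, with -1.94 (SE 0.67, limma adjusted p = 0.300), and Rgs4, with -1.03 (SE 0.39, limma adjusted p = 0.314). For Rgs10 and Rgs4 all 3 Sos2KO arrays lay under all 3 WT arrays, which also held for one direction or the other in 20.2% of all genes. For Rgs5 the arrays overlapped at 6.17 and 6.14, and the difference was -1.12 without WT replicate 2. That for Rgs4 was -0.60 without Sos2KO replicate 2. Rgs16 differed by -0.07 with a 95% interval from -1.29 to 1.15, and Rgs12 by 0.18 with an interval from -0.43 to 0.78. All 3 Sos2KO arrays and no WT array had high Dap, so a term for high Dap rests here on the high-Dap arrays of the other groups. With that term Rgs16 differed by 0.79, Rgs12 by 0.55 and Rgs17, at 0.13 without it, by -0.81. With a term for the high-GC background Rgs16 differed by 0.86 and Rgs17 by -0.24, and none of these values was called. The intervals leave room for differences of more than 1 unit in Rgs16, so these data do not show that the groups were alike. Sos2 itself differed by -1.14 (limma adjusted p = 0.278) and was not called in this comparison either. The median size of difference was 0.15 over the members and 0.20 over all genes.

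Loss of Sos2 where Sos1 was already absent gave 0 called members. In Sos1/2DKO minus Sos1KO, limma called 0.00513% of all genes (1 gene), and 4 members had an unadjusted p under 0.05, as had 7.2% of all genes. Rgs3 differed by 0.59 (95% interval 0.13 to 1.05, limma adjusted p = 0.609) and Rgs17 by -0.84 (-1.55 to -0.13, limma adjusted p = 0.659). Rgs5 differed by 1.51 (0.06 to 2.96, limma adjusted p = 0.682) and Rgs16 by -1.23 (-2.45 to -0.01, limma adjusted p = 0.691). The arrays of both groups overlapped for every member, and 11.4% of all genes did not overlap. Sos1KO replicate 1 set much of the Rgs16 value, which was -0.44 without it. Without that array the Rgs5 difference was 0.91, and the Rgs17 difference was -0.49 without Sos1KO replicate 3. The median size was 0.50 over the members and 0.16 over all genes.

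The Sos2 main effect, which averages both Sos2 comparisons over 6 arrays a side, had 0 called members by limma and 0 with an unadjusted p under 0.05, against 0.00513% and 15.8% of all genes. The gene called was Sos2. Rgs16 had the widest difference of the members, -0.65 with a 95% interval from -1.51 to 0.21. It was -0.22 with a term for high Dap, -0.06 with one for the high-GC background and -0.26 without Sos1KO replicate 1.

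The interaction asks whether the Sos1 difference changed with Sos2. It is the Sos1/2DKO minus Sos2KO difference less that of Sos1KO minus WT. Both are among the comparisons that chose the members, so it is not independent of the choice. limma called 0 members and 0% of all genes, and 3 members had an unadjusted p under 0.05, beside 4.93% of all genes. For Rgs5 the Sos1 difference was 0.79 with Sos2 present and 4.23 without it, an interaction of 3.45 (95% interval 1.39 to 5.50, limma adjusted p = 0.907). For Rgs4 it was 0.99 and 2.49, an interaction of 1.5 (0.30 to 2.69, limma adjusted p = 0.907). For Rgs10 it was -0.46 and 0.35, an interaction of 0.81 (0.31 to 1.30, limma adjusted p = 0.907). Rgs16 had an interaction of -1.16 with an interval from -2.89 to 0.57. No interaction passed the test over all genes.

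**Figure D4:**
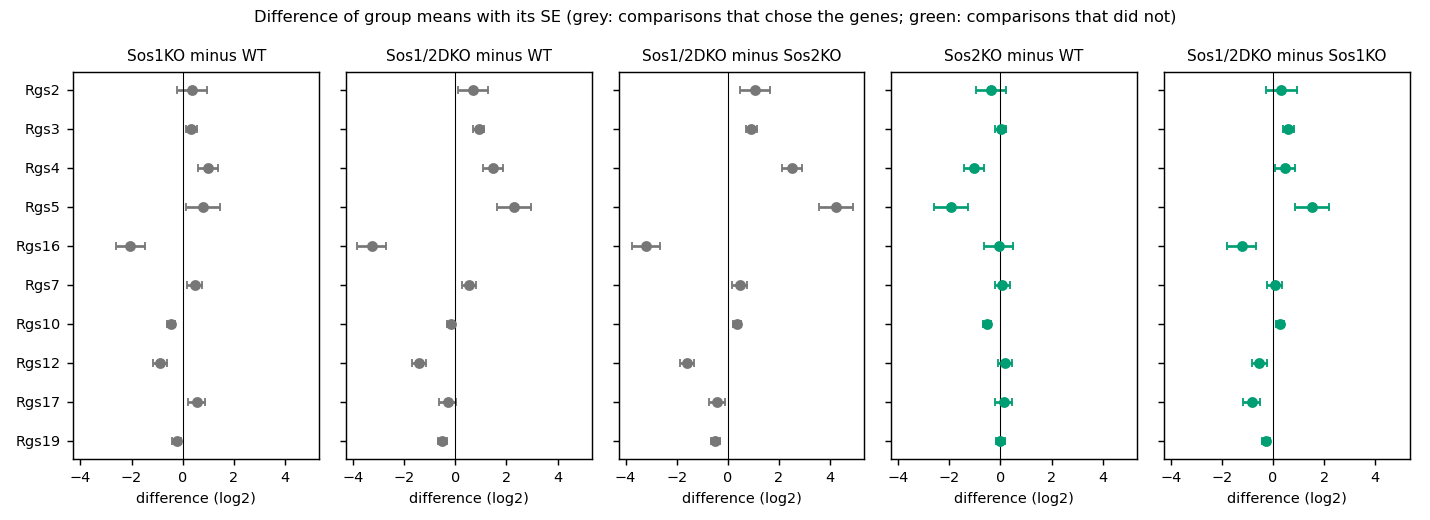
Difference of group means (log2) with its SE for the 10 RGS genes in 5 comparisons of 3 arrays against 3. Grey comparisons chose the genes and are descriptions, and green ones were tested. Rgs16 is at -2.04, -3.27 and -3.20 in the grey panels and at -0.07 when Sos2 alone was lost.

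The rest of the G protein pathway was described with 7 lists of 146 genes, of which 131 were measured. In Sos1KO minus WT 2 of the 131 were called (1.53%, beside 0.62% of all genes). In Sos1/2DKO minus WT 15 were called, 9 higher and 6 lower (11.5%, beside 5.94%). In Sos1/2DKO minus Sos2KO 16 were called, 13 higher and 3 lower (12.2%, beside 6.14%). The median difference over the 131 was 0.05, 0.07 and 0.09, beside 0.01, 0.05 and 0.01 over all genes. In the other 4 comparisons limma called 0 of the 131, beside at most 0.00513% of all genes. There 5 to 20 of the 131 had an unadjusted p under 0.05, beside 4.93% to 15.8% of all genes. These counts moved when 1 array was left out, as did the share of all genes called, given in parentheses. The first count was 0 without replicate 1 or 3 of WT or replicate 2 of Sos1KO (0% each) or replicate 3 of Sos1KO (0.2%). It was 5 without Sos1KO replicate 1 (0.984%) or Sos1/2DKO replicate 2 (1.17%). The second was 4 without WT replicate 1 (1.37%) and 7 without WT replicate 2 (3.19%) or 3 (2.5%). The third was 4 without Sos2KO replicate 1 (1.74%) or 2 (2.27%). In Sos2KO minus WT 4 were called without Sos2KO replicate 3 (3.69%), and for the Sos2 main effect 5 without Sos1/2DKO replicate 2 (2.11%).

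Of the 20 other RGS-domain genes 1 was called, in Sos1/2DKO minus Sos2KO (5%, beside 6.14% of all genes). Snx13, a sorting nexin that acts on Gs, rose in Sos1/2DKO minus Sos2KO by 0.87 (limma adjusted p = 0.0196), and none of the 20 was called in the other comparisons. Rgs13, Rgs18, Rgs20, Rgs21 and Rgs22 were weak on all 12 arrays. Rgs8, the neighbour of Rgs16, stayed between 6.01 and 6.76. Rgs14, a relative of Rgs12 with the same domains for Ras and G alpha, stayed between 7.08 and 7.89.

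Among the alpha subunits on which RGS proteins act, 13 were measured and 1 was called, in Sos1/2DKO minus WT (7.69%, beside 5.94% of all genes). Gnai3, an alpha subunit of the Gi class, fell in Sos1/2DKO minus WT by 0.67 on the log2 scale (limma adjusted p = 0.0417). Its mean was 9.90 ± 0.15 (SD, n = 3) in WT, 9.27 ± 0.18 in Sos2KO and 9.23 ± 0.31 in Sos1/2DKO, and the call held in 8 of 25 settings, the reported one included (adjusted p up to 0.163). Of the 16 beta and gamma subunits 3 were called in that comparison (18.8%, beside 5.94% of all genes). Gng11 and Gng2 fell and Gng7 rose, with calls that held in 17, 9 and 16 of the 25 settings. Gng11 had a mean of 7.15 ± 1.03 (SD, n = 3) in WT and 5.24 ± 0.30 in Sos1/2DKO, where it was weak on all 3 arrays, so the size of its fall is uncertain. Gng7 went from 5.08, weak on all WT arrays, to 6.07.

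Of the 39 receptors measured, 5 were higher and 2 lower in Sos1/2DKO minus WT (17.9%, beside 5.94% of all genes). Ptgfr, the prostaglandin F receptor, which couples to Gq, rose in Sos1/2DKO by 2.97 against WT (SE 0.52, limma adjusted p = 0.00813) and by 3.20 against Sos2KO (limma adjusted p = 0.00752). It read 5.97, 5.36 and 6.50 in WT and 7.83, 9.83 and 9.06 in Sos1/2DKO, without overlap. Adra1b, a Gq-coupled adrenergic receptor, rose by 1.04 against WT (limma adjusted p = 0.00956). S1pr1, which couples to Gi, fell by 1.28 against WT (limma adjusted p = 0.0060) and by 1.00 in Sos1KO (limma adjusted p = 0.0464).

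Of the 24 effectors 4 were called in Sos1/2DKO minus WT and 4 in Sos1/2DKO minus Sos2KO (16.7% each, beside 5.94% and 6.14% of all genes). Pkia, an inhibitor of the protein kinase A catalytic subunit, rose in Sos1KO by 1.59 (limma adjusted p = 0.0389) and in Sos1/2DKO by 1.65 against WT and 2.27 against Sos2KO (limma adjusted p = 0.00781 and 0.00326). Prkar2b, a regulatory subunit of that kinase, fell in Sos1/2DKO minus WT by 1.20 (limma adjusted p = 0.0359). Prkacb, a catalytic subunit, rose in Sos1/2DKO minus Sos2KO by 1.08 (limma adjusted p = 0.0217). Arrdc3, an arrestin-domain protein, and Grk4, a receptor kinase, rose in that comparison by 1.82 and 0.94 (limma adjusted p = 0.0149 and 0.0330). Gipc1, the partner of Rgs19, fell there by 0.75 (limma adjusted p = 0.0430). These calls held in 17 of 24 settings for Prkacb, 20 for Arrdc3, 12 for Grk4 and 7 for Gipc1, whose adjusted p went up to 0.324. Those for Prkar2b and for Adcy9, an adenylyl cyclase that rose in Sos1/2DKO minus WT by 0.57 (limma adjusted p = 0.0430), held in 13 and 4 of 25. Adcy9 was weak on all 3 WT arrays (5.05 to 5.37), so the size of its rise is uncertain. Prkacb, Arrdc3, Grk4 and Gipc1 were not called without Sos2KO replicate 1 or 2, or with a term for high Dap or the high-GC background. The S1pr1 call in Sos1KO minus WT held without Sos1KO replicate 1, Sos1/2DKO replicate 2 or Sos1/2DKO replicate 3, and was lost without any of the other 9 arrays. The Pkia call there was lost without replicate 1 or 3 of WT, or replicate 2 or 3 of Sos1KO.

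**Figure D5:**
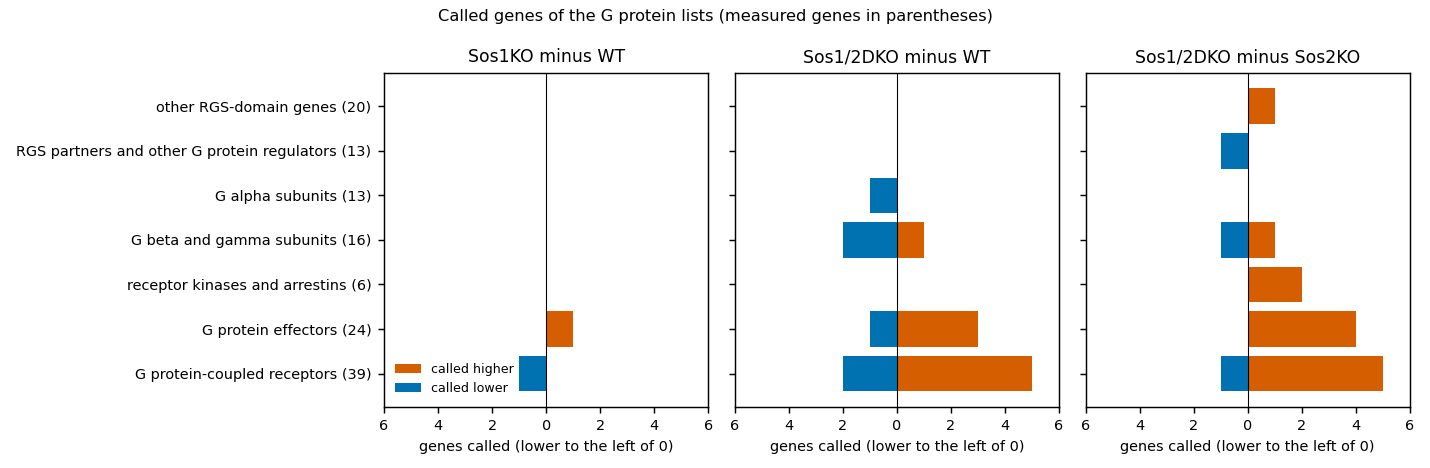
Number of genes called (limma adjusted p under 0.05) in each G protein list, higher to the right of 0 and lower to the left, for the 3 comparisons that remove Sos1. Over all genes 0.62% were called in Sos1KO minus WT, 5.94% in Sos1/2DKO minus WT and 6.14% in Sos1/2DKO minus Sos2KO. Receptors, the longest list, hold 7 calls of 39 (17.9%) in Sos1/2DKO minus WT and 6 (15.4%) in Sos1/2DKO minus Sos2KO, beta and gamma subunits hold 3 of 16 (18.8%) in the first of these, receptor kinases and arrestins 2 of 6 (33.3%) in the second, and the other RGS-domain genes hold 1 in the last panel.

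The RAS-ERK target list was set beside the RGS genes, since Myc and Dusp4 followed Rgs16. Both are in this list and were picked for their r with Rgs16, which was chosen for being lower without Sos1. The counts in the comparisons that remove Sos1 are therefore not independent of that choice. Of its 15 measured genes, 0 were called in Sos1KO minus WT by limma (8 at an unadjusted p under 0.05), 10 fell in Sos1/2DKO minus WT and 8 fell in Sos1/2DKO minus Sos2KO. Over all genes 11.1% had an unadjusted p under 0.05 in the first of these comparisons, 4.16% were called lower in the second and 2.8% in the third. Dusp6 in Sos1/2DKO minus WT fell by 2.22 (limma adjusted p = 0.00582), Myc fell by 1.70 (limma adjusted p = 0.00652) and Fosl1, an AP-1 subunit, fell by 1.38 (limma adjusted p = 0.00845). In Sos2KO minus WT 0 of the 15 were called, and 0 had an unadjusted p under 0.05.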

How the data were processed

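RNA of 12 fibroblast cultures was measured on arrays, and the title of each array gave its group. Per the submitters' processing notes, the authors made the deposited log2 values with RMA in R 3.6.3. Which build the probes were designed on is not given in the sources used here. The authors' deposited tables give each probe set a log2 fold change, a raw and adjusted p-value and a B score, per the file headers, and recomputed differences matched theirs to within 6.22e-09. Precision is limited by the number of arrays.

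The 29129 probe sets included 19572 with 1 gene symbol in the platform annotation, 0 with several and 9557 with none. The probe set with the highest mean was kept for the 55 genes with several, which left 19505 genes, and each RGS gene had 1. Group means were fitted over all 12 arrays with limma 3.58.1 in R 4.3.3 (8 residual degrees of freedom, two-sided moderated tests, Benjamini-Hochberg adjustment over 19505 genes), and calls were made at an adjusted p under 0.05. The code was tested on simulated data. The members and the gene lists were chosen with earlier results of these data known. Up to 3 called genes per pathway list and comparison were named, those with the smallest adjusted p, with the 5 genes nearest in Pearson r to Rgs16 and to Rgs5. Rgs1, Rgs8 and Rgs14, Kcnj8 and Abcc9 were added after their values were seen. Alternatives were other normalizations, filters, priors, array weights, blocks, terms for control values, and leaving out each array. Same-numbered replicates had r over 0.1 in 6 of 18 pairs (-0.345 to 0.305), so numbers were not used as pairs in the fit over all groups. Only for WT with Sos2KO were all 3 pairs over 0.1 (0.111, 0.108 and 0.305). There the fit with a replicate block also called 0 genes. Promoter letters came from RefSeq (GRCm38.p6).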

Additional observations from a re-analysis of the deposited data

Results flagged for a closer look

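Rgs10 stood out because its Sos1 difference went one way with Sos2 present and the other way without it, with no overlap of arrays in either. It was -0.46 in Sos1KO minus WT, where the arrays were 6.76 to 7.16 against 7.31 to 7.60, and 0.35 in Sos1/2DKO minus Sos2KO, where they were 7.08 to 7.51 against 6.88 to 6.97. The interaction was 0.81 (SE 0.23) and did not pass the test over all genes (limma adjusted p = 0.907). Such a pattern was seen in 42 of the 19505 genes (0.215%). That share is a description only, since Rgs10 was singled out among the members and both differences were among those that chose them. Without 1 array at a time the interaction lay between 0.68 and 0.90.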

How the results depend on the processing

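The 0 called RGS genes in the 4 tested comparisons stayed 0 under every alternative run. In the comparisons that remove Sos1, Rgs16, Rgs12, Rgs4, Rgs5, Rgs3 and Rgs19 kept their direction under every alternative. Rgs16 in Sos1KO minus WT lay between -2.83, without Sos1KO replicate 1, and -1.62, without Sos1KO replicate 3. Rgs5 in that comparison was 0.063 without WT replicate 1 and 1.60 without WT replicate 2. Rgs4 in Sos1/2DKO minus WT was 0.96 with a Y-linked term. Rgs17 in Sos1/2DKO minus Sos2KO turned from -0.43 to 0.20 with a term for high Dap. Rgs2 in Sos1KO minus WT turned to -0.05 without WT replicate 1.

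The counts of called pathway genes moved most, and the cause was not tested. The share of all genes called, given in parentheses, moved as well. For Sos1KO minus WT the count was 2 (0.62%). It was 1 with median centring (0.374%), a replicate block (0.333%) or a term for high Dap (0.369%). It was 0 with all probe sets (0.103%), a Y-linked term (0.21%) or within arrays without high Dap (0%). With only the groups compared it was 4 (1.4%), with array weights 14 (8.61%), and without 1 array 0 to 5 (0% to 1.2%). For Sos1/2DKO minus WT the count was 15 (5.94%). It was 8 with all probe sets (2.99%) or a Dap term (4.45%), and 7 with only the groups compared (3.83%). It was 4 with a Y-linked term (2.07%) or within arrays without high Dap (1.93%), and 4 to 17 without 1 array (1.37% to 7.71%). For Sos1/2DKO minus Sos2KO the count was 16 (6.14%). It was 10 with only the groups compared (2.39%), 7 with a Dap term (1.48%) and 9 with a Y-linked term (3.5%). It was 4 with a high-GC background term (0.995%), and 4 to 22 without 1 array (1.74% to 8.51%). For Sos2KO minus WT it was 0, and 0 to 4 without 1 array, with 4 without Sos2KO replicate 3, when 720 of all genes were called. For the Sos2 main effect it was 0 (0.00513%), 5 with array weights (3.18%), and 0 to 5 without 1 array (0% to 2.11%). The within-Dap and high-GC alternatives were chosen after seeing the data. In the fit with a replicate block 925 genes were called in Sos1/2DKO minus WT against 1158, and 65 against 121 in Sos1KO minus WT. The block moved the member calls only in Sos1/2DKO minus WT, where Rgs4 was lost and Rgs5 gained. In Sos1KO minus WT 0 of all genes were called without replicate 1 or 3 of WT or replicate 2 of Sos1KO.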
